A study of Mus musculus with 10 samples.

Results

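The A-, B-, D- and E-type cyclins are 10 mouse genes, Ccna1, Ccna2, Ccnb1, Ccnb2, Ccnb3, Ccnd1, Ccnd2, Ccnd3, Ccne1 and Ccne2. They were chosen by name, and all 10 were found among the 28125 genes of the scRNA-seq matrix and the 30670 genes of the scATAC-seq matrix. Each matrix holds 1 pooled value per gene for each of 13 testis cell populations. RNA is given here as UMIs (unique molecular identifiers, that is, counted RNA molecules) per 10000 UMIs of the population, and scATAC-seq as a share of a total of 1000000 over all genes.

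Nuclei came from testes of wild-type (WT) mice aged 11, 17 or 25 days (days postpartum, dpp), and from Cre/+ and Nfya-CKO adults of 8 weeks. RNA and open chromatin were read from the same nuclei. Cre/+ mice carry Stra8-Cre, a Cre knock-in at the Stra8 gene, which is active in spermatogonia. In Nfya-CKO mice Cre removes part of Nfya, the gene for a subunit of the CCAAT-binding factor NF-Y. Each condition is 1 library per assay, with 3746 to 18039 scRNA-seq cells, and the number of animals behind a library is not given in the sources used here. The populations, pooled over libraries, were spermatogonia (SpG), split into undifferentiated (undiff. SpG) and differentiating ones (diff. SpG), spermatocytes in preleptotene (pL), early leptotene to zygotene (eL/L/Z), leptotene to early pachytene (L/Z/eP), mid and late pachytene (mP/lP) and diplotene (D), round spermatids (RS), elongating spermatids (ES), Sertoli cells, other somatic cells, unknown cells, and the undifferentiated SpG found in the Nfya-CKO library (SpG Nfya-CKO), which is called by its label here. Of the 5883 other somatic cells, 4633 (78.8%) also came from the Nfya-CKO library, as did 19 of the 99 unknown cells. Since a population is 1 value, the values have no replicate spread, no test was made, and the order of neighbouring populations cannot be set against an error. Nfya itself was at 0.456 UMIs per 10000 in undiff. SpG and 1.11 in SpG Nfya-CKO, so RNA did not show the deletion, and a UMI outside the deleted part does not check it.

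Cyclins are the regulatory subunits of cyclin-dependent kinases (CDKs). D-type cyclins bind Cdk4 and Cdk6 and answer to growth signals in G1 phase, E-type cyclins bind Cdk2 at the start of S phase, A-type cyclins bind Cdk2 and Cdk1 from S phase to mitosis, and B-type cyclins bind Cdk1 to drive entry into division. In the testis, spermatogonia divide by mitosis, preleptotene spermatocytes carry out the last round of DNA replication, and spermatocytes then pass through a long prophase before the meiotic divisions. Ccna1 is known for its role in male meiosis and Ccnb3 is a B-type cyclin expressed in meiosis.

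Promoter sequence of the members was taken from RefSeq (GRCm38.p6, the build that the authors call mm10), and the table of windows used here held 7 windows of 6 members (Ccna1, Ccnb1, Ccnb2, Ccnb3, Ccnd3 with 2 windows, and Ccne1). The windows run from 250 bases before to 50 after a transcript start. NF-Y binds the sequence CCAAT. Searched on both strands, it was in 4 of the 7 windows, from 4 of the 6 members, and in 37.4% of the 32851 promoter windows of the table. Windows of Ccnb1 and Ccnb2 held at least 2 copies, as did 11.7% of all windows. The 250 bases before the start are shown for the 4 members with a match, 5′ to 3′ on the strand of the gene, with CCAAT or its complement ATTGG in capitals. They lie at chr13:100786487-100786736 (minus strand) for Ccnb1, chr9:70421555-70421804 (minus) for Ccnb2, chr3:55055056-55055305 (minus) for Ccna1, and chr17:47593217-47593466 (plus) for the inner start of Ccnd3. The start of the Ccna1 window also lies inside the annotated span of the gene.
Ccnb1: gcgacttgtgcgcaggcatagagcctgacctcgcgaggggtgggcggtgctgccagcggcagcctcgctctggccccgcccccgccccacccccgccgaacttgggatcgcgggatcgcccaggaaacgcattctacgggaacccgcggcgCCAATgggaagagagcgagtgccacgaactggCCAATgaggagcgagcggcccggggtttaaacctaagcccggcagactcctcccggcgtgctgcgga
Ccnb2: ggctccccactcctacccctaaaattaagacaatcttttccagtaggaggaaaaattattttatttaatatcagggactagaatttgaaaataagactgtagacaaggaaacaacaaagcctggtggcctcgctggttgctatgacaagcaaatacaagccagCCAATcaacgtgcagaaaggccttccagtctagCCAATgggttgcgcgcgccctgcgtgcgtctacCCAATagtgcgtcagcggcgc
Ccna1: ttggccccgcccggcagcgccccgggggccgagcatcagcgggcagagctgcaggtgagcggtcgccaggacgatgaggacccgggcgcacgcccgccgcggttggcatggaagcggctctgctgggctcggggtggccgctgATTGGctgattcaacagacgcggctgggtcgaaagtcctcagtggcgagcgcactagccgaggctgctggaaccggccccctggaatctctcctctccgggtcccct
Ccnd3: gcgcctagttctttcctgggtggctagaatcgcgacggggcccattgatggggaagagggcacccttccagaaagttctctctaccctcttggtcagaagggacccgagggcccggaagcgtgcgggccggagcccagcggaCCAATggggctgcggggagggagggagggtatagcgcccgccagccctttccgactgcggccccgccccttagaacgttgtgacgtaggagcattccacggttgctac

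In Ccnb2 the 3 copies stood on the strand of the gene, beginning 87, 54 and 21 bases before the start, so that each began 33 bases after the one before. In Ccnb1 the 2 copies began 99 and 67 bases before the start, 32 bases apart and on the same strand. Ccna1 held 1 copy on the opposite strand and the inner Ccnd3 window 1 copy on the strand of the gene. The windows of Ccnb3, Ccne1 and the outer start of Ccnd3 did not hold these letters. The words TTTGAA and TTCGAA, the core of the cell cycle homology region, were found at 2 places in the Ccnb2 window and in no other member window, against 19.2% of all windows with at least 1. The E2F-type words TTTCCCGC, TTTGGCGC and TTTCGCGC were in 0 of the 7 windows (1.84% of all), and the GC box GGGCGG was in 6 of the 7, all but that of Ccnb3 (35.7% of all), each searched on both strands. No match overlapped a match of another motif. These matches describe letters in a window and say nothing of binding.

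All 10 members are protein-coding genes. Ccnd1 lies at chr7:144929931-144939831, Ccnd2 at chr6:127125162-127152188, Ccnd3 at chr17:47505051-47599689, Ccne1 at chr7:38097984-38107490 and Ccne2 at chr4:11190433-11204779. Ccna1 lies at chr3:55045469-55057634, Ccna2 at chr3:36564865-36573038, Ccnb1 at chr13:100778739-100786486, Ccnb2 at chr9:70407689-70421554 and Ccnb3 at chrX:6979652-7041635. Another annotated gene overlaps Ccna1, Ccna2, Ccnd1, Ccnd2, Ccnd3 and Ccne2, the longest overlaps being 7217 bases of Ccnd3 with Gm41590 and 5622 bases of Ccne2 with Ints8. Since the use of strand in counting is not given in the sources used here, UMIs of such partners may not be told apart. RefSeq also lists a pseudogene each for Ccnb1, Ccnb2 and Ccnd3, whose part in the counts, made from unique alignments, was not tested.

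Depth set the resolution of these levels. The populations held 99 (unknown) to 8107 (L/Z/eP) scRNA-seq cells, with a median of 1525 UMIs in other somatic cells and 18361 in SpG Nfya-CKO, against 9290 in undiff. SpG. As a guide, 3 UMIs in cells of median depth correspond to 0.0640 UMIs per 10000 in unknown cells and to at most 0.0098 in each of the other 12 populations. Of the members, Ccna1 and Ccne1 were under that guide level in unknown cells, and no other value was under it. All 10 members passed the filter of a mean of 0.05 UMIs per 10000 over populations, as did 15250 genes in all.

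Developmental populations also differed in age. Cells of the WT libraries made up 92.0% of undiff. SpG and 99.7% of pL, whereas Cre/+ cells made up 84.5% of diff. SpG, 77.0% of RS and 99.6% of ES. A difference between populations that come from different libraries cannot be told apart from a difference between those libraries. Libraries also shared cell barcodes: of 39674 barcodes, 5030 occurred in more than 1 scRNA-seq library. Of the 491 SpG Nfya-CKO barcodes, 143 also named a diff. SpG cell of the Cre/+ library, which is 15.4% of all diff. SpG cells, and those barcodes held a median of 21876 UMIs in the Nfya-CKO and 2378 in the Cre/+ library, against 7862 for the other Cre/+ diff. SpG cells. Shared barcodes made up 35.6% of SpG Nfya-CKO cells, 49.1% of diff. SpG, 32.5% of undiff. SpG, 19.0% of pL, 59.7% of ES and 70.1% of other somatic cells. The pooled values cannot be computed without these cells, so each result that rests on diff. SpG or SpG Nfya-CKO includes them, and their part in it was not tested.

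Marker lists were highest in the populations of their name for undiff. SpG (21.3 UMIs per 10000, summed), pL (4.86), L/Z/eP (33.5), mP/lP (19.4), ES (71.7) and Sertoli cells (42.9), and Leydig markers in other somatic cells. Endothelial markers were highest in unknown cells (12.6), which also held Leydig markers at 25.6. The part of such cells in the values of unknown cells was not tested. Markers of differentiating spermatogonia were highest in pL, at 3.88 against 3.42 in diff. SpG. Diff. SpG also held markers of later germ cells: spermatid markers summed to 7.85 there against 0.469 in undiff. SpG and 0.0170 in pL, and pachytene markers to 4.32 against 1.5 and 0.845, each list with 4 of 4 genes above undiff. SpG. Prm1, a protamine of spermatids, was at 3.94 in diff. SpG and 0.155 in undiff. SpG. Their part in the differences between diff. SpG and other populations was not tested. The scATAC-seq values carry a further difference, since mitochondrial genes took from 31.2% of the signal in pL to 64.5% in other somatic cells, so values across populations are also given over nuclear genes alone.

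The 10 cyclins had their highest RNA level in 6 different populations. Ccnb1, Ccnd2 and Ccnd3 were highest in undiff. SpG, where 8.47% of all genes compared had their highest value, and Ccna2, Ccnd1 and Ccne2 in pL (11.1% of genes). Ccnb3 was highest in L/Z/eP (3.67%), Ccnb2 in mP/lP (9.9%), Ccna1 in D (2.62%) and Ccne1 in SpG Nfya-CKO (11.6%), although for Ccne1 that value and the one in pL were 1.01 times apart. Among the 9 control germ cell populations, the highest value of Ccna1 was 47.2 times its lowest, that of Ccnd2 102, that of Ccnd1 47.7 and that of Ccna2 18.9, against 2.11 times for Ccnb2.

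**Figure D1:**
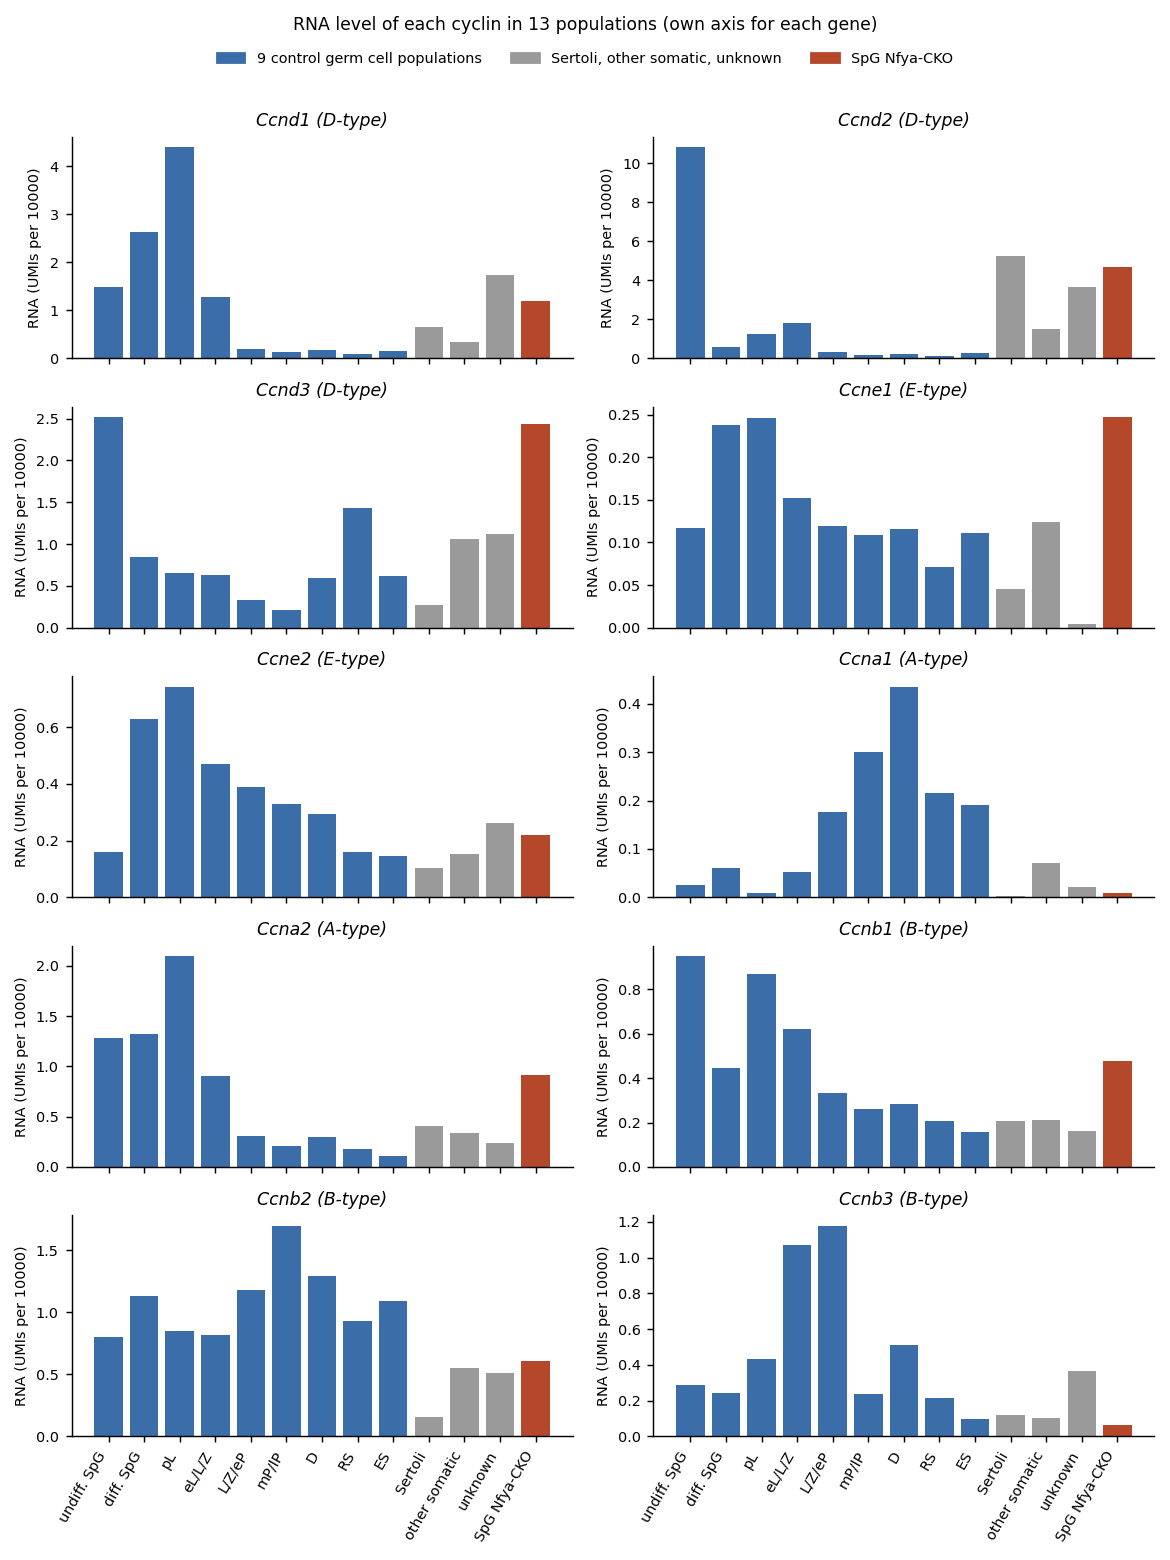
RNA level of each cyclin (UMIs per 10000, linear axis from 0, own axis for each gene) in the 13 populations, each bar being 1 pooled value with no error available. Ccnd2 stands at 10.8 in undiff. SpG and 0.579 in diff. SpG, Ccnd1 peaks in pL at 4.39, and Ccna1 is highest in D at 0.436.

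Of the D-type cyclins, Ccnd2 RNA was highest in undiff. SpG. Along the control germ cells Ccnd2 was at 10.8 UMIs per 10000 in undiff. SpG, 0.579 in diff. SpG, 1.24 in pL, 1.82 in eL/L/Z, 0.309 in L/Z/eP, 0.147 in mP/lP, 0.229 in D, 0.106 in RS and 0.269 in ES. It was therefore 18.7 times higher in undiff. than in diff. SpG, with a smaller second maximum in eL/L/Z. Sertoli markers moved with that maximum, summing to 2.39 UMIs per 10000 in undiff. SpG, 1.81 in diff. SpG, 3.59 in pL and 7.48 in eL/L/Z (6 of 6 above undiff. SpG, none at 0), and their part in it was not tested. Outside the germ line, Ccnd2 was at 5.24 in Sertoli cells, 1.48 in other somatic cells and 3.62 in unknown cells, so the value in undiff. SpG was 2.06 times that in Sertoli cells. Sertoli cells are the somatic support cells of the tubule, and 2866 of these 3265 cells came from the library of 11 dpp.

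Ccnd1 RNA followed another course, with its maximum in pL. Ccnd1 was at 1.48 UMIs per 10000 in undiff. SpG, 2.62 in diff. SpG, 4.39 in pL, 1.27 in eL/L/Z, 0.198 in L/Z/eP, 0.120 in mP/lP, 0.170 in D, 0.092 in RS and 0.138 in ES. The value in pL was 2.96 times that in undiff. SpG and 36.5 times that in mP/lP. In Sertoli cells it was at 0.650, in other somatic cells at 0.331 and in unknown cells at 1.74.

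Ccnd3 RNA had its maximum in undiff. SpG and a smaller second maximum in RS. Ccnd3 was at 2.52 UMIs per 10000 in undiff. SpG, 0.848 in diff. SpG, 0.649 in pL, 0.630 in eL/L/Z, 0.326 in L/Z/eP, 0.211 in mP/lP, 0.599 in D, 1.44 in RS and 0.614 in ES. The low point was mP/lP, and RS stood 6.81 times above it. Ccnd3 was the only member whose RNA was higher in RS than in D. It was at 0.267 in Sertoli cells, 1.06 in other somatic cells and 1.12 in unknown cells.

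E-type cyclins were lower in undiff. SpG than in diff. SpG and pL. Ccne2 was at 0.159 UMIs per 10000 in undiff. SpG, 0.631 in diff. SpG, 0.744 in pL, 0.470 in eL/L/Z, 0.391 in L/Z/eP, 0.330 in mP/lP, 0.294 in D, 0.160 in RS and 0.146 in ES. After its maximum in pL, which was 4.67 times the value in undiff. SpG, each later population was lower than the one before. Ccne1 ran from 0.0712 in RS to 0.246 in pL, with 0.117 in undiff. SpG and 0.237 in diff. SpG, and the other control germ cell populations between 0.108 and 0.152. In Sertoli cells Ccne1 was at 0.0452 and Ccne2 at 0.104, and the value of 0.00415 for Ccne1 in unknown cells is under the guide level.

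The A-type cyclins were high in different populations, Ccna2 before meiotic prophase and Ccna1 late in it. Ccna2, the A-type cyclin of dividing body cells, was at 1.28 UMIs per 10000 in undiff. SpG, 1.32 in diff. SpG, 2.09 in pL, 0.904 in eL/L/Z, 0.309 in L/Z/eP, 0.206 in mP/lP, 0.300 in D, 0.173 in RS and 0.111 in ES. Its value in pL was 10.1 times that in mP/lP. Ccna1 was at 0.0251 in undiff. SpG, 0.0604 in diff. SpG, 0.00923 in pL, 0.0521 in eL/L/Z, 0.177 in L/Z/eP, 0.301 in mP/lP, 0.436 in D, 0.217 in RS and 0.192 in ES. Diplotene spermatocytes thus stood 17.4 times above undiff. SpG. Ccna1 was at 0.00167 in Sertoli cells, and the 0.0718 in other somatic cells was above its level in each population up to eL/L/Z. Other somatic cells also held pachytene markers at a sum of 3.92 and spermatid markers at 3.34, against 1.5 and 0.469 in undiff. SpG, and their part in the Ccna1 value was not tested. Over the 13 populations, the Pearson r of log2 RNA (value + 0.1) between Ccna1 and Ccna2 was -0.64, a description over points that share libraries.

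Among B-type cyclins, Ccnb1 and Ccnb2 had different courses. Ccnb1, the main mitotic B-type cyclin, was at 0.950 UMIs per 10000 in undiff. SpG, 0.447 in diff. SpG, 0.869 in pL, 0.620 in eL/L/Z, 0.331 in L/Z/eP, 0.260 in mP/lP, 0.282 in D, 0.207 in RS and 0.156 in ES. It was low from L/Z/eP on, and close in course to Ccna2 (r = 0.91 over the 13 populations). Ccnb2 stayed within a narrow range, at 0.803 in undiff. SpG, 1.14 in diff. SpG, 0.850 in pL, 0.816 in eL/L/Z, 1.18 in L/Z/eP, 1.70 in mP/lP, 1.29 in D, 0.932 in RS and 1.09 in ES. Its value in mP/lP was 2.11 times that in undiff. SpG, and it was at 0.155 in Sertoli cells and 0.550 in other somatic cells.

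Ccnb3 RNA was highest in early meiotic prophase. Ccnb3 was at 0.289 UMIs per 10000 in undiff. SpG, 0.244 in diff. SpG, 0.432 in pL, 1.07 in eL/L/Z, 1.18 in L/Z/eP, 0.237 in mP/lP, 0.509 in D, 0.212 in RS and 0.0967 in ES. The value in L/Z/eP was 4.97 times that in mP/lP, and D stood 2.15 times above mP/lP. Sertoli cells were at 0.121 and other somatic cells at 0.104.

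The 4 steps along spermatogenesis were compared by the log2 ratio of RNA (value + 0.1), counting genes at least 2-fold apart by size alone. From undiff. to diff. SpG, Ccne2 was higher by this measure (log2 ratio 1.49), as were 9.57% of the 15250 genes, and Ccnd2 (-4.01) and Ccnd3 (-1.47) were lower, as were 6.28%. From pL to eL/L/Z, Ccnb3 was higher (1.14), as were 4.41% of genes, while Ccnd1 (-1.71) and Ccna2 (-1.13) were lower, as were 0.59% of genes. From L/Z/eP to mP/lP, 0 members were higher (1.38% of genes) and Ccnb3 was lower (-1.92, with 3.54% of genes). From D to RS, Ccnd3 was higher (1.13, with 10.6% of genes) and 0 members were lower (3.34%), although 9 of the 10 had a log2 ratio below 0, with a median of -0.52 over members against -0.17 over all genes. With so few members past 2-fold at a step, a single gene moves the share by 10 percentage points. The counts also depend on the pseudocount, since with 0.5 in place of 0.1 Ccne2, Ccnb3 (pL to eL/L/Z) and Ccnd3 (D to RS) no longer counted as higher, nor Ccna2 (pL to eL/L/Z) as lower.

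Open chromatin over Ccnd1 and Ccnd2 was correlated with their RNA over the populations, though for Ccnd2 not at each step. From pL to eL/L/Z, Ccnd2 RNA went from 1.24 to 1.82 UMIs per 10000, while its accessibility was lower with and without mitochondrial genes. Over nuclear genes, the scATAC-seq value of Ccnd2 per 1000000 was 109 in undiff. SpG, 35.7 in diff. SpG, 56.4 in pL, 51.0 in eL/L/Z, 30.9 in L/Z/eP, 18.6 in mP/lP, 21.5 in D, 19.7 in RS, 28.6 in ES and 113 in Sertoli cells. Undiff. SpG and Sertoli cells, with the highest control RNA, were thus also the highest controls in accessibility, and the correlation of log2 values over the 13 populations was 0.96 (Pearson) and 0.95 (Spearman). For Ccnd1 the values were 92.8 in undiff. SpG, 97.6 in diff. SpG, 124 in pL, 88.8 in eL/L/Z, 64.8 in L/Z/eP, 47.7 in mP/lP, 44.9 in D, 41.9 in RS and 33.8 in ES (Pearson r = 0.91, Spearman rho = 0.91). Counted with mitochondrial genes, r was 0.94 for Ccnd2 and 0.91 for Ccnd1.

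For Ccnd3, the change in accessibility from mP/lP to RS depended on the scale, and on both scales it was smaller than that of RNA. Its nuclear scATAC-seq value was 60.9 in undiff. SpG and 19.3 in diff. SpG, 3.15 times apart, near the 2.97 times of its RNA. In RS it was 15.4 against 18.0 in mP/lP, a ratio of 0.854, and with mitochondrial genes counted the ratio was 1.29, while RNA was 6.81 times higher. From D to RS, accessibility was lower on both scales, at 18.3 and 15.4 over nuclear genes and 9.39 and 9.20 with mitochondrial genes. RNA was 2.39 times higher at that step. In ES, which rest on 124 scATAC-seq cells, the nuclear value was 5.12.

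Among control germ cells, the other members showed a narrower range of accessibility than Ccnd1 (3.68-fold), Ccnd2 (5.85-fold) and Ccnd3 (11.9-fold). Over nuclear genes Ccna2 ran only from 57.5 in ES to 77.9 in L/Z/eP among control germ cells, a 1.35-fold range, although its RNA varied 18.9-fold. The correlation for Ccna2 depended on the scale and the populations, with r = 0.11 over the 13 and 0.56 over the 9 control germ cell populations over nuclear genes, and 0.63 and 0.74 with mitochondrial genes. Ccne1 and Ccne2 varied 1.41- and 1.42-fold, and Ccnb1 and Ccnb2 1.5- and 1.55-fold. Ccna1 ran from 22.8 in eL/L/Z to 71.9 in mP/lP, a 3.15-fold range, with 61.5 in D and 60.3 in RS (r = 0.65). With the Sertoli value of 11.3, its range over the 13 populations was 6.37-fold, and that of Ccnb3 was 6.52-fold. Ccnb3 ran from 8.10 in undiff. SpG to 20.9 in D (r = 0.42), and its value in L/Z/eP was 0.766 of that in mP/lP, where its RNA was lower.

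The sign of the relation was not stable for 4 members. Among the 9 control germ cell populations alone, with the scale that includes mitochondrial genes, r was -0.04 for Ccnb1, -0.37 for Ccnb2 and -0.29 for Ccnb3, against 0.40, 0.41 and 0.37 over all 13. Over nuclear genes the same 9 populations gave -0.70 for Ccnb1, 0.49 for Ccnb2 and -0.00186 for Ccnb3, so the sign for Ccnb2 also turned with the scale. Over nuclear genes all 13 populations gave 0.05 for Ccnb1, 0.41 for Ccnb2 and 0.42 for Ccnb3. For Ccne1 r was 0.03 over all 13 and 0.76 over the 9, and over nuclear genes -0.45 and 0.65, and its highest nuclear accessibility (141) fell in unknown cells, which are 54 scATAC-seq cells. These correlations are across populations that share libraries, and the populations are not independent samples. The authors' methods define promoter accessibility as the mean coverage close to a transcription start in pooled, depth-normalized fragments, but the sources used here do not say that the gene matrix was made that way, so its values were not assigned to the promoter.

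**Figure D2:**
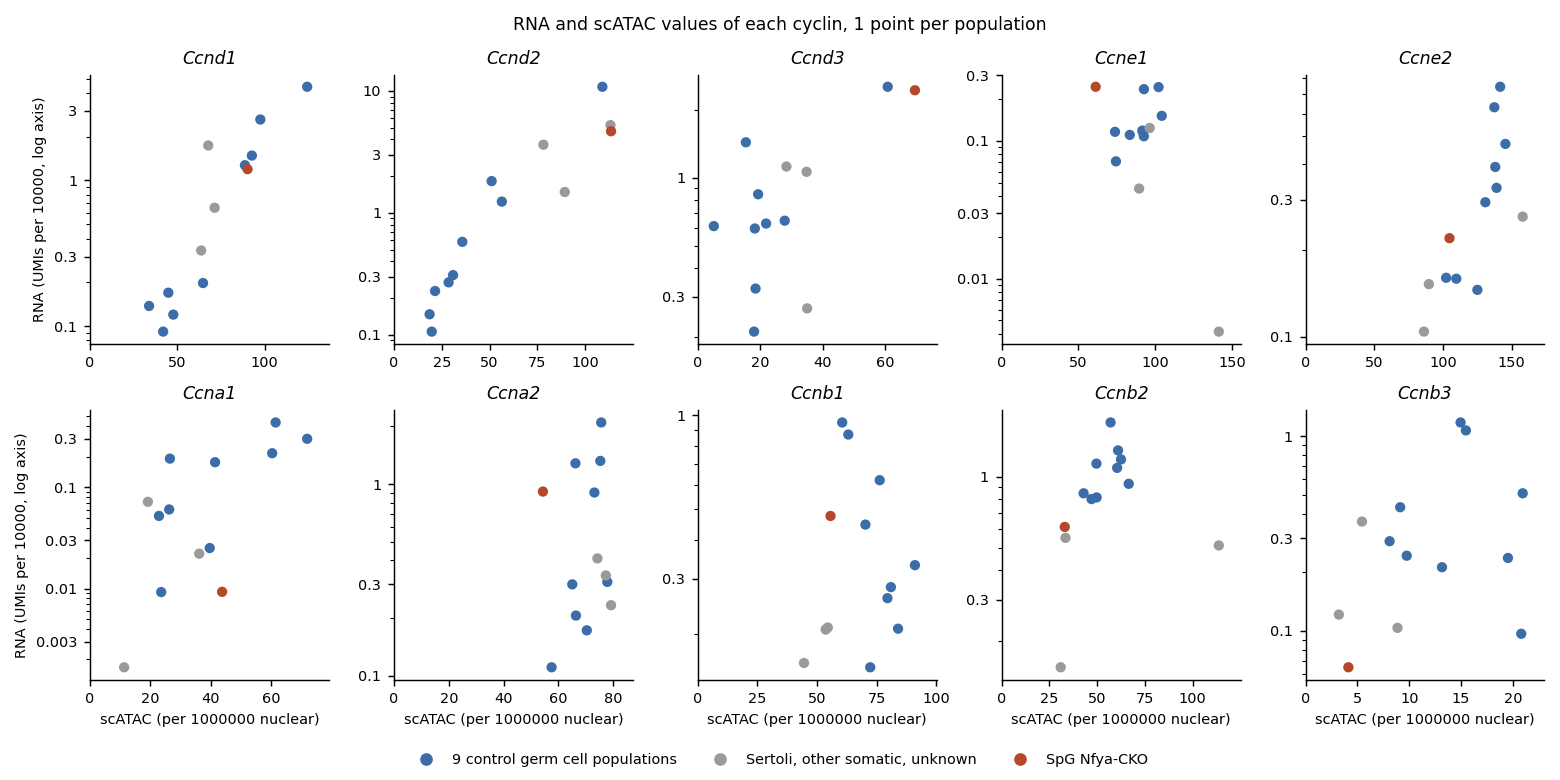
RNA (UMIs per 10000, log axis) against scATAC-seq value (per 1000000 over nuclear genes, linear axis) of each cyclin, 1 point per population. The points of Ccnd1 and Ccnd2 line up (r = 0.91 and 0.96), whereas those of Ccna2 spread over RNA within a 1.46-fold range of accessibility (r = 0.11, and 0.56 over the 9 control germ cell populations).

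To see how cyclins stood in the mutant library, SpG Nfya-CKO were compared with undiff. SpG. The 491 SpG Nfya-CKO cells were all from 8-week-old testes, while undiff. SpG (1292 cells) came mostly from the WT libraries of 11 to 25 dpp, so genotype, age and library cannot be told apart. The undifferentiated markers summed to 19.6 UMIs per 10000 in SpG Nfya-CKO and 21.3 in undiff. SpG, with Zbtb16 at 4.15 against 8.74, Sall4 at 2.08 against 4.88, Uchl1 at 11.0 against 5.88, Gfra1 at 1.20 against 1.08 and Etv5 at 1.11 against 0.760. Markers of differentiating spermatogonia were higher for 3 of 3 genes, Kit being at 1.08 against 0.548, while Stra8, the preleptotene marker, was at 0.969 against 2.05. Pachytene markers summed to 0.585 against 1.5, although 2 of 4 were higher, and spermatid markers to 0.107 against 0.469 (0 of 4 higher). Leydig cell markers, which are steroid-making somatic cell genes, were higher in SpG Nfya-CKO for 5 of 5 genes and summed to 49.3 against 0.208, with 218 in other somatic cells, none of the 5 being at 0 in these 3 populations. Sertoli markers summed to 5.27 against 2.39 (5 of 6 higher) and macrophage markers to 0.282 against 0.0669 (4 of 4 higher).

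By the log2 ratio of RNA (value + 0.1), Ccnb3 and Ccnd2 were at least 2-fold lower in SpG Nfya-CKO than in undiff. SpG, and 0 members were at least 2-fold higher. Over all 15250 genes 3.08% were lower and 4.09% higher by that measure. Ccne1, 2.12 times higher without a pseudocount, counted as higher with a pseudocount of 0.01 (log2 ratio 1.02). Each of the lower calls ends under another setting. With a pseudocount of 0.5 the log2 ratio of Ccnb3 was -0.48. That of Ccnd2 was -0.94 with a somatic share taken out, as described further on. Ccnd2 was at 4.67 UMIs per 10000 against 10.8 (log2 ratio -1.19), and Ccnb3 at 0.0650 against 0.289 (-1.24), so SpG Nfya-CKO had the lowest Ccnb3 value of the 13 populations. Ccnb1 came just under the threshold, with 0.476 against 0.950 (-0.87), and the log2 ratio was lower than that of Ccnb1 in 4.49% of all genes. Ccna2 was at 0.914 against 1.28 (-0.45), Ccnb2 at 0.612 against 0.803 (-0.34) and Ccnd1 at 1.19 against 1.48 (-0.29). Ccnd3 was nearly equal, with 2.43 against 2.52 (-0.05), and Ccna1 was very low in both, with 0.00929 against 0.0251 (-0.19).

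The E-type cyclins were the members with a higher value. Ccne1 was at 0.247 against 0.117 UMIs per 10000 (log2 ratio 0.68) and Ccne2 at 0.221 against 0.159 (0.31). In all, 8 of 10 members had a log2 ratio below 0, with a median of -0.32 against 0.01 over all genes. Other somatic cells, at 0.124 for Ccne1 and 0.152 for Ccne2, were below SpG Nfya-CKO for both genes.

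For Ccnb1, Ccnd2, Ccnd3 and Ccne2 the direction turned with the control population. Against diff. SpG the log2 ratio of Ccnd2 was 2.81 and against pL 1.83, and that of Ccnd3 was 1.42 and 1.76, whereas Ccne2 went from higher to lower (-1.19 and -1.40). Ccnb1 was near equal to diff. SpG, with 0.476 against 0.447 UMIs per 10000 (log2 ratio 0.08), and lower than pL (-0.75). Ccnd1 (-1.07 and -1.79) and Ccnb3 (-1.06 and -1.69) were lower against both, as against undiff. SpG. By at least 2-fold, 2 members were higher and 3 lower against diff. SpG, where 6.86% and 10.5% of all genes were, and 2 were higher and 4 lower against pL, where 9.05% and 4.73% of genes were. Diff. SpG also carried the spermatid and pachytene markers given above, whose part in its ratios was not tested. The 143 shared barcodes are 29.1% of the SpG Nfya-CKO cells and so enter each of the 3 comparisons, and on both sides of that with diff. SpG. Ccne1 had ratios of 0.04 and 0.01, so its level in SpG Nfya-CKO was close to that of diff. SpG and pL. On the log2 scale SpG Nfya-CKO lay nearest to undiff. SpG in Ccna2, Ccnb2, Ccnd1, Ccnd2, Ccnd3 and Ccne2. For Ccna2 the margin was small (-0.45 against undiff. SpG and -0.49 against diff. SpG). It lay nearer to diff. SpG and pL in Ccne1, and nearest to diff. SpG in Ccnb1 and Ccnb3. In Ccna1, very low in both, it lay nearest to pL. By linear level, Ccnd2 (4.67 UMIs per 10000) lay nearer to diff. SpG (0.579) and pL (1.24) than to undiff. SpG (10.8). Ccna2, Ccnb2, Ccnb3 and Ccnd1 were lower against each of the 3 controls, and of these only Ccnb3 by at least 2-fold in each. Against diff. SpG and pL the log2 ratio was -0.49 and -1.11 for Ccna2, and -0.80 and -0.42 for Ccnb2.

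**Figure D3:**
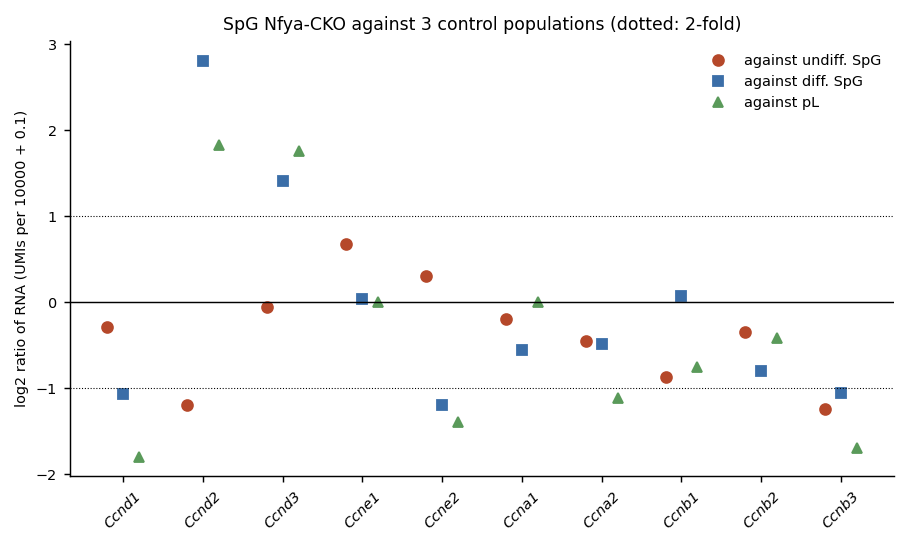
Log2 ratio of RNA (value + 0.1) of SpG Nfya-CKO over undiff. SpG (circles), diff. SpG (squares) and pL (triangles) for each cyclin, with dotted lines at 2-fold. Ccnb3 lies below the lower line in all 3 comparisons, and Ccnd2 lies at -1.19 against undiff. SpG but at 2.81 against diff. SpG.

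The ratios were also computed with a share of other somatic RNA taken out, set by the Leydig markers. Each of the 5 was in SpG Nfya-CKO at 16.3% to 24.6% of its level in other somatic cells, and their sum at 22.6%. Sertoli markers stood at 22.5% of their sum in other somatic cells, and peritubular markers at 3.35% (0.156 against 4.66 UMIs per 10000). Macrophage markers stood at 65.4% and endothelial markers at 76.4%. These shares include any level already present in undiff. SpG, which was 0.208 for Leydig markers. For Sertoli markers it was 2.39 (5.27 in SpG Nfya-CKO), and for peritubular markers 0.133. For macrophage markers it was 0.0669 (0.282 in SpG Nfya-CKO), and for endothelial markers 0.228 (0.277). Whether other somatic RNA as a whole entered at the Leydig share was not tested. With that share of each other somatic value subtracted from SpG Nfya-CKO, the rest divided by the remaining share, and a negative result (Ccna1 among the members) set to 0, a setting chosen after seeing the data, Ccnd2 was at 5.60 UMIs per 10000 with a log2 ratio of -0.94, under the 2-fold threshold, and Ccnb3 at 0.0538 with -1.34. Ccnb1 was then at -0.68, Ccna2 at -0.22, Ccnd1 at -0.03 and Ccne1 at 0.82. Each member except Ccnd3, which moved from -0.05 to 0.16, kept its direction. Over all 15250 genes, 1069 were then lower and 574 higher by at least 2-fold, against 469 and 624 as deposited.

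**Figure D4:**
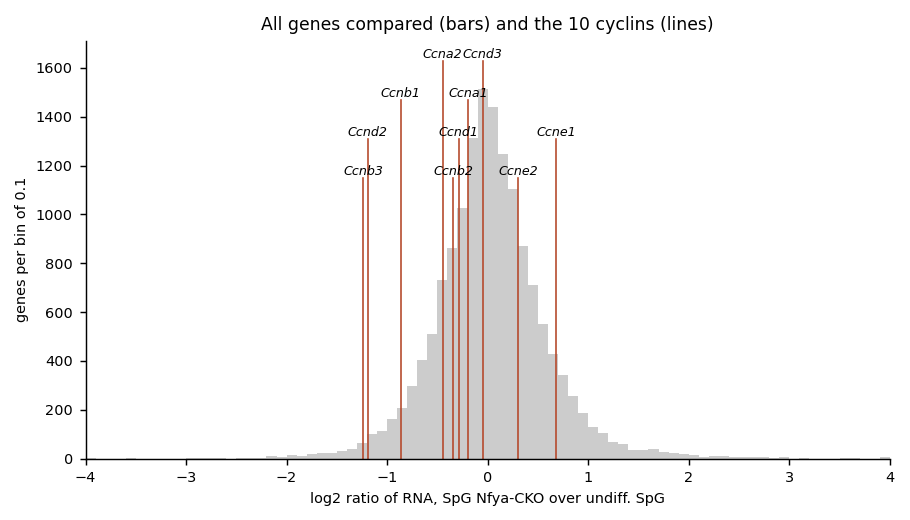
Number of genes per bin of 0.1 in the log2 ratio of RNA, SpG Nfya-CKO over undiff. SpG, for the 15250 genes compared (bars, values beyond the axis counted in the end bins), with the 10 cyclins as lines. Ccnb3 at -1.24 and Ccnd2 at -1.19 lie in the lower tail, and Ccnd3 at -0.05 lies near the median of 0.01.

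By scATAC-seq, 4 members were lower in SpG Nfya-CKO than in undiff. SpG by at least 0.32 on the log2 scale (a ratio of 0.8 or less) and 0 were higher by that much, while over the 27466 genes compared 25.8% were lower and 24.6% higher. Ccnb3 was at 2.23 against 4.81 per 1000000 (ratio 0.463), Ccnb2 at 17.8 against 27.9 (0.638), Ccna2 at 29.3 against 39.3 (0.746) and Ccne1 at 33.0 against 43.8 (0.754). Ccnb1 was at 30.0 against 35.9 (0.835), Ccne2 at 56.5 against 65.1 (0.868), Ccnd1 at 48.7 against 55.1 (0.885), Ccnd2 at 61.2 against 64.6 (0.947), Ccna1 at 23.6 against 23.5 (1.003) and Ccnd3 at 37.5 against 36.1 (1.04). Only Ccnb3 was past the threshold of each assay, on low scATAC-seq values from 470 and 1230 cells, and Ccnd2, 2.31 times lower in RNA, was nearly equal in accessibility. Ccne1 was higher in RNA and lower in accessibility. Against diff. SpG, 7 members were lower and 3 higher in accessibility, where 43.2% and 33.3% of all genes were, and against pL also 7 and 3, where 41.5% and 32.6% of genes were. Over nuclear genes 6 members were lower and 3 higher against each of these controls, while of all genes 30.8% were lower and 42.5% higher against diff. SpG, and 23.6% and 45.6% against pL.

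Over nuclear genes alone, Ccnb3 (ratio 0.509) and Ccnb2 (0.702) were still past the threshold, and Ccna2 (0.821) and Ccne1 (0.830) were not, while 15.7% of the 27466 genes were lower and 32.2% higher on that scale. The mitochondrial share was 46.0% in SpG Nfya-CKO and 40.6% in undiff. SpG, and mean TSS enrichment, a measure of scATAC-seq quality, was 7.99 against 12.7. Their part in the ratios was not tested beyond this scaling. Among the 6 members with a promoter window, the accessibility ratios over all genes were 0.638 for Ccnb2 (3 copies of CCAAT), 0.835 for Ccnb1 (2 copies), and 1.003 and 1.04 for Ccna1 and Ccnd3 (1 copy each). They were 0.463 for Ccnb3 and 0.754 for Ccne1, whose windows hold none, so the members with and without these letters overlapped.

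Genes that work with the cyclins were read from lists chosen with earlier results of these data known. Of 6 CDKs and Cks proteins, 1 was at least 2-fold higher and 2 lower in SpG Nfya-CKO than in undiff. SpG, where 4.09% of all genes were higher and 3.08% lower, the background for each list that follows. Cks2, a small CDK-binding protein, was at 0.0878 UMIs per 10000 against 1.26 (log2 ratio -2.86), and its relative Cks1b at 0.273 against 0.696 (-1.10). Cdk2, the partner of E- and A-type cyclins, was at 1.23 against 0.512 (1.12), with 1.57 in other somatic cells. Of the CDKs of the D-type cyclins, Cdk4 was close, at 1.09 against 1.05 (0.05). Cdk6 was higher but under 2-fold, at 1.64 against 1.15 (0.48), and had its highest value in SpG Nfya-CKO. Cdk1, the partner of B-type cyclins, was close, at 0.637 against 0.644 (-0.01).

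Among 7 CDK inhibitors, 1 was lower, Cdkn1b (p27) at 0.422 against 1.21 (-1.33), and 0 were higher. Of 5 genes of CDK phosphorylation, Pkmyt1, a kinase that holds Cdk1 inactive, was higher at 0.837 against 0.292 (1.26), and 0 were lower. Of 8 genes of cyclin ubiquitination, Ube2c, which serves the anaphase-promoting complex that destroys B-type cyclins, was lower at 0.179 against 0.476 (-1.04). Of 13 E2F and Rb genes, 7 MuvB, Myb and FoxM1 genes, 16 proliferation genes and 2 meiotic CDK partners, 0 were 2-fold apart, with list medians of -0.05, 0.05, -0.17 and 0.06 against 0.01 over all genes. Of 17 other cyclins compared, 1 was lower, Ccnj at 0.0851 against 0.292 (-1.08), named here after its value was seen.

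Along the populations, 7 of 13 E2F and Rb genes and 7 of 16 proliferation genes had their highest RNA level in pL, as did Ccna2, Ccnd1 and Ccne2, against 11.1% of all genes. A further 5 of the 16 proliferation genes were highest in SpG Nfya-CKO, against 11.6% of genes. Of the other lists, 1 of 6 CDKs and Cks, 1 of 7 CDK inhibitors and 3 of 5 CDK phosphorylation genes were highest in pL. So were 3 of 8 cyclin ubiquitination genes and 1 of 7 MuvB, Myb and FoxM1 genes. Of 17 other cyclins 6 were highest in pL, and of 2 meiotic CDK partners 0. E2f1, the transcription factor of the G1 to S passage, was at 1.04 in undiff. SpG, 1.33 in pL and 0.121 in mP/lP. Cdk2 was highest in other somatic cells, and Cdk1 in mP/lP at 0.864, where Ccnb2 was also highest. Spdya, an activator of Cdk2 in meiosis, was highest in mP/lP at 2.02, with 0.164 in undiff. SpG.

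Outside these lists, the genes most like each member were taken by the Pearson r of log2 RNA (value + 0.1) over the 13 populations. For Ccna1 they were Tcp10c (r = 0.99), 1700101I19Rik (0.99) and 4930568A12Rik (0.99), each highest in D. For Ccna2 they were Nanos1 (0.99), Sox11 (0.99) and Dagla (0.98), and for Ccnb1 Efnb3 (0.96), Ap1s3 (0.96) and again Dagla (0.96). Ccnb2 was most like Tcfl5 (0.98), a transcription factor of spermatocytes, Radil (0.98) and Trim37 (0.96), and Ccnb3 was most like Gm29107 (0.91), Gm43666 (0.91) and Sdk1 (0.90).

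Of the D-type cyclins, Ccnd1 was most like Plod1 (0.98), Panx1 (0.98) and Fam199x (0.97), Ccnd2 most like Zfp710 (0.97), Tanc1 (0.97) and Rab3a (0.97), and Ccnd3 most like Cacng4 (0.96), Crybg1 (0.93) and Slc4a4 (0.92). Ccne1 was most like Cinp (0.97), Kif22 (0.95) and Supv3l1 (0.94), and Ccne2 most like H1fx (0.94), Rmi2 (0.92) and Ticrr (0.92), the last being a replication factor. With so few points many genes reach a high r, and over the 9 control germ cell populations alone 7 of the 10 members kept 0 of their 3 genes, 2 (Ccnb3 and Ccnd1) kept 1, and Ccna1 kept 2.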

How the data were processed

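Simultaneous scRNA-seq and scATAC-seq of testis nuclei gave 5 libraries per assay, 1 per condition. Per the paper's methods, the authors aligned scRNA-seq reads with STAR 2.7.10b (unique alignments only, UMI duplicates removed) and scATAC-seq reads with BWA 0.7.12 to mm10, with ends shifted for the transposase, and named populations with Seurat 5.2.1 and ArchR 1.0.3 after removing doublets with DoubletFinder (scRNA-seq) and ArchR (scATAC-seq). No doublets were called here. The authors deposited counts of UMIs, genes and fragments per cell, the percent of mitochondrial UMIs, and TSS enrichment, a ratio of coverage at transcription starts to flanks, for 45250 scRNA-seq and 343866 scATAC-seq cells, of which 31569 carry a population. No library is given for 49 scRNA-seq cells. Median depth was 3070 UMIs and 3968 fragments per cell. They also deposited 1 matrix per assay of pooled population values on a natural log scale, described here from the values: exp(value) - 1 sums to 10000 per population, and scATAC-seq was rescaled to 1000000. A further 20 columns of the cell tables were not used.

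With Python 3.11.15, numpy 2.4.6 and pandas 2.3.3, RNA ratios were taken on the log2 scale with a pseudocount of 0.1. They covered genes whose mean reached 0.05 and were counted at 2-fold. For scATAC-seq a ratio with no pseudocount was taken over nuclear genes whose mean reached 1, counted at 0.32 on the log2 scale. Genes with a value of 0 in SpG Nfya-CKO, undiff. SpG or the control compared were left out of the scATAC-seq shares. No test was possible, since a population is 1 pooled value. Counting was checked on simulated data, with changes larger than 2-fold in genes of higher level only. That check does not cover calls near 2-fold or calls on low genes. Named genes were the 10 members, the 3 genes most like each, Cdk1, Cdk2, Cdk4, Cdk6, Nfya, at most 4 genes per list that were at least 2-fold apart with a mean of at least 0.2, and markers where a result turns on them, with further list genes beside the members' course (E2f1 and Spdya) and Ccnj named after their values were seen. Members, lists and tests were chosen with earlier results of these data known. Alternatives covered the pseudocount, filter, threshold, scaling, control population, set of populations and promoter window. An alternative count, ratio or level counted as kept within 1.5-fold, and a correlation within 0.2. Coordinates and promoters are RefSeq's for GRCm38.p6. Protein sequences were not used here, so the planned identity between members was not computed.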

Additional observations from a re-analysis of the deposited data

How the results depend on the processing

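No paired analysis was possible because each condition is 1 library per assay, and leaving out a library was not possible in pooled values.

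Against undiff. SpG, 2 members were at least 2-fold lower in SpG Nfya-CKO and 0 higher. The count of lower members was 1 with a pseudocount of 0.5, which left Ccnd2. It was 1 with the Leydig share taken out (chosen after seeing the data), which left Ccnb3. The lower count was 3 at a threshold of 1.5-fold, 3 against diff. SpG and 4 against pL. The count of higher members was 1 (Ccne1) with a pseudocount of 0.01, 1 at a threshold of 1.5-fold, and 2 against diff. SpG and 2 against pL. The log2 ratio of Ccnd2 changed sign with the control, to 2.81 for diff. SpG and 1.83 for pL. Median scaling, no filter and a mean of at least 0.2 kept both counts. Of all genes, 6.86% were higher and 10.5% lower against diff. SpG, and 9.05% and 4.73% against pL. Shares of all genes were not taken at the other pseudocounts or at 1.5-fold, so the member counts there cannot be set against them.

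For scATAC-seq, the count of 4 lower members was 2 over nuclear genes, 7 against diff. SpG and 7 against pL, and the count of 0 higher members was 3 against diff. SpG and 3 against pL. Of all genes, 43.2% were lower and 33.3% higher against diff. SpG, and 41.5% and 32.6% against pL. A pseudocount of 1 and a median ratio of 1 kept both.

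Of the steps, undiff. to diff. SpG had 1 higher member, and 2 with a pseudocount of 0.01, 0 with 0.5 and 3 at 1.5-fold. Its 2 lower members were 3 with 0.01 and 3 at 1.5-fold. From pL to eL/L/Z the 1 higher member was 2 with 0.01 and 0 with 0.5, and the 2 lower were 1 with 0.5. From L/Z/eP to mP/lP the 1 lower member was 2 with 0.01 and 2 at 1.5-fold. From D to RS the 1 higher member was 0 with 0.5, and the 0 lower were 2 with 0.01 and 4 at 1.5-fold. A pseudocount weighs most on low genes by its construction. For the steps too, shares of all genes were taken only at the main setting. The counts at other pseudocounts and at 1.5-fold therefore cannot be read as more or fewer than among all genes.

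The correlation of RNA and scATAC-seq changed sign among the 9 control germ cell populations for Ccnb1 (-0.0402), Ccnb2 (-0.37) and Ccnb3 (-0.29), and for Ccne1 by Spearman rho (-0.0220) and over nuclear genes (-0.45). The highest RNA level stayed within 1.5-fold for all 10 members in both alternatives, and the 250 bases before the start gave the same 4 members with CCAAT. The protein comparison was not run. Low cell numbers limit unknown cells (99) and the scATAC-seq of ES (124).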
